A study of Manihot esculenta with 9 samples.

Results

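Leaves of HOE8, a cassava (Manihot esculenta) line that overexpresses the linker histone gene MeH1.2, were set against wild-type (WT) leaves by RNA sequencing, with 3 libraries in each group. All genes of the deposited count table that passed a standard filter on low counts entered the comparison, which were 23434 of 33033 genes, and they are described here by gene family and pathway. HOE8 is the submitters' transgenic line 2, called line 8 in the sample titles, and stands for 1 line. Neither the promoter of the transgene nor the tissue in which it acts is given in the sources used here. Plants of every group were untreated seedlings aged 2 months, propagated from cut stem segments and kept in closed sterile bottles on MS medium. Another overexpressing line, HOE1, had 3 libraries in the same model and its values are given below beside those of HOE8, with tests of HOE8 against HOE1 and, for a few genes, of HOE1 against WT. Libraries are numbered 1 to 3 within a group, and no label says that they came from separate plants. The p-values therefore cover the spread among these libraries alone, which may be technical. No time of collection is given.

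Linker histones sit on the DNA that joins nucleosomes and promote the folding of chromatin. In a young leaf, cells leave division, expand, and build chloroplasts under the control of light, the clock and hormones. In an old leaf, chlorophyll, protein and nucleic acids are broken down and the nitrogen is exported. Transcripts that mark these stages are well known in Arabidopsis, and gene names below are those of the best Arabidopsis match in the deposited annotation, whose function was not tested in cassava.

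Levels are CPM, reads relative to the TMM-scaled size of the library, as mean ± SD of 3 libraries, and log2 fold changes are HOE8 over WT ± SE unless another pair is named. A gene is called higher or lower at an adjusted p under 0.05. Library totals ran from 13272047 to 16378389 reads. The first HOE8 library was the odd member of its group. Its counts differed from those of libraries 2 and 3 by a median chi-square of 2.05 and 2.31 over genes, where those libraries differed from each other by 0.787 and sampling noise alone gives 0.455. Main counts are therefore also given without it. On the first principal component, which held 65.6% of the variance, HOE8 and WT lay at opposite ends and HOE1 lay between them. On the second, which held 23.4%, HOE1 (-72.1 to -71.3) lay apart from both WT (53.1 to 54.0) and HOE8 (16.3 to 21.7).

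The linker histone gene was looked at first. No source used here gives its locus. The candidate was chosen by its Arabidopsis best match and by its level in both lines, so its rise is no independent check of the labels. The MeH1.2 candidate Manes.08G136300 (chromosome 8, 30254598 to 30255861; genome build not stated) measured 154, 152 and 139.6 CPM in the WT libraries and 3236, 3643 and 3157 CPM in the HOE8 libraries. The groups did not overlap (log2 fold change 4.49 ± 0.066, edgeR adjusted p = 1.8e-12). Native and transgene reads cannot be told apart in this count, and the gene overlaps its neighbour Manes.08G136400. All 6 linker histone genes of the annotation were called higher, where 33.7% of all genes tested were. The next in level, Manes.01G144600, rose from 554 ± 30.6 to 1271 ± 141 CPM.

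Most of the transcriptome differed between HOE8 and WT leaves. Of 23434 genes, 16841 were called (71.9%), 7891 higher (33.7%) and 8950 lower (38.2%). Without HOE8 library 1 the counts were 8138 higher and 9156 lower. Large changes were common: 3587 genes rose by 2-fold or more (15.3%) and 3894 fell (16.6%), and at 32-fold or more there were 122 higher and 260 lower. Libraries of the 2 groups did not overlap for 73.7% of genes, so that a lack of overlap alone singles out no gene. The median over all genes tested was -0.05 on the log2 scale. Every list below is to be read against these shares.

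Some genes were read in WT leaves and not at all in HOE8 leaves. Of genes with a mean of at least 1 CPM in WT, 65 had 0 reads in HOE8, of which 24 had at least 1 CPM in HOE1. The reverse, 0 reads in WT and at least 1 CPM in HOE8, was found for 18 genes. Manes.04G115700, a glyoxalase family protein (chromosome 4, 24743848 to 24745152), had 899 reads over the WT libraries and was at least 253-fold lower in HOE8. Manes.10G124800, described as a B3 family protein related to an auxin response factor (chromosome 10, 23660529 to 23660914), had 779 reads in WT and was at least 219-fold lower, while HOE1 held 16.5 ± 0.86 CPM beside 16.5 ± 1.8 CPM in WT. Among the losses without complete silence, Manes.01G202400, matching class I glutamine amidotransferases (chromosome 1, 29522613 to 29524282), measured 124, 114 and 108 CPM in the WT libraries and 0.227, 0 and 0.0734 CPM in the HOE8 libraries. No HOE8 library reached 1 CPM (log2 fold change -10.05 ± 0.25, edgeR adjusted p = 4.2e-11). Manes.07G020700, an AP2/B3-like factor (chromosome 7, 1937142 to 1937910), fell from 175 ± 2.2 to 0.128 ± 0.16 CPM and measured 121 ± 2.1 CPM in HOE1, far above HOE8 (HOE8 against HOE1, log2 fold change -9.81 ± 0.24, edgeR adjusted p = 5.5e-11).

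In the other direction, Manes.12G134700, an NPH3 family protein (chromosome 12, 28925057 to 28930246), had 1 read in WT and measured 28.9, 32.4 and 37.6 CPM in the HOE8 libraries, a ratio of 1555-fold (95% exact counting interval 279 to 61462). Manes.16G054700, matching the sesquiterpene synthase TPS21 (chromosome 16, 13246493 to 13253051), had 0 reads in WT and 18.1 ± 1.6 CPM in HOE8, at least 283-fold higher. Manes.07G119800, an RCC1 family protein (chromosome 7, 24737670 to 24743958), measured 0.274, 0.518 and 0.235 CPM in the WT libraries and 76.2, 76.5 and 83.0 CPM in the HOE8 libraries. Manes.08G135800, an acyl-CoA N-acyltransferase family gene (chromosome 8, 30190248 to 30191679), rose from 0.131 ± 0.14 to 58.1 ± 4.2 CPM. These genes were near silence in every WT library and clearly read in every HOE8 library.

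The 10 most abundant genes of HOE8, which were chosen for being highest there, took 4.08% to 4.48% of counted reads in HOE8 libraries and 0.762% to 0.81% in WT libraries. The 10 most abundant genes of WT took 2.16% to 2.95% in WT libraries and 1.77% to 2.11% in HOE8 libraries. On the deposited FPKM scale, which divides by gene length, Rubisco small subunit Manes.01G011500 stood at 2385 in WT and 7076 in HOE8, and Rubisco activase Manes.10G027600 at 273 and 6191. In WT the leading genes included Manes.13G092100, a methyl esterase matching hydroxynitrile lyase, at 3192 FPKM against 353 in HOE8, and ubiquitin 4, Manes.17G035300, at 1898 against 370.2. The undescribed gene Manes.15G039800 measured 9.88, 6839.9 and 6933 CPM in the WT libraries and 1038, 977 and 942 CPM in the HOE8 libraries, so that 1 WT library went against the others and no call was made (edgeR adjusted p = 0.18).

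**Figure D1:**
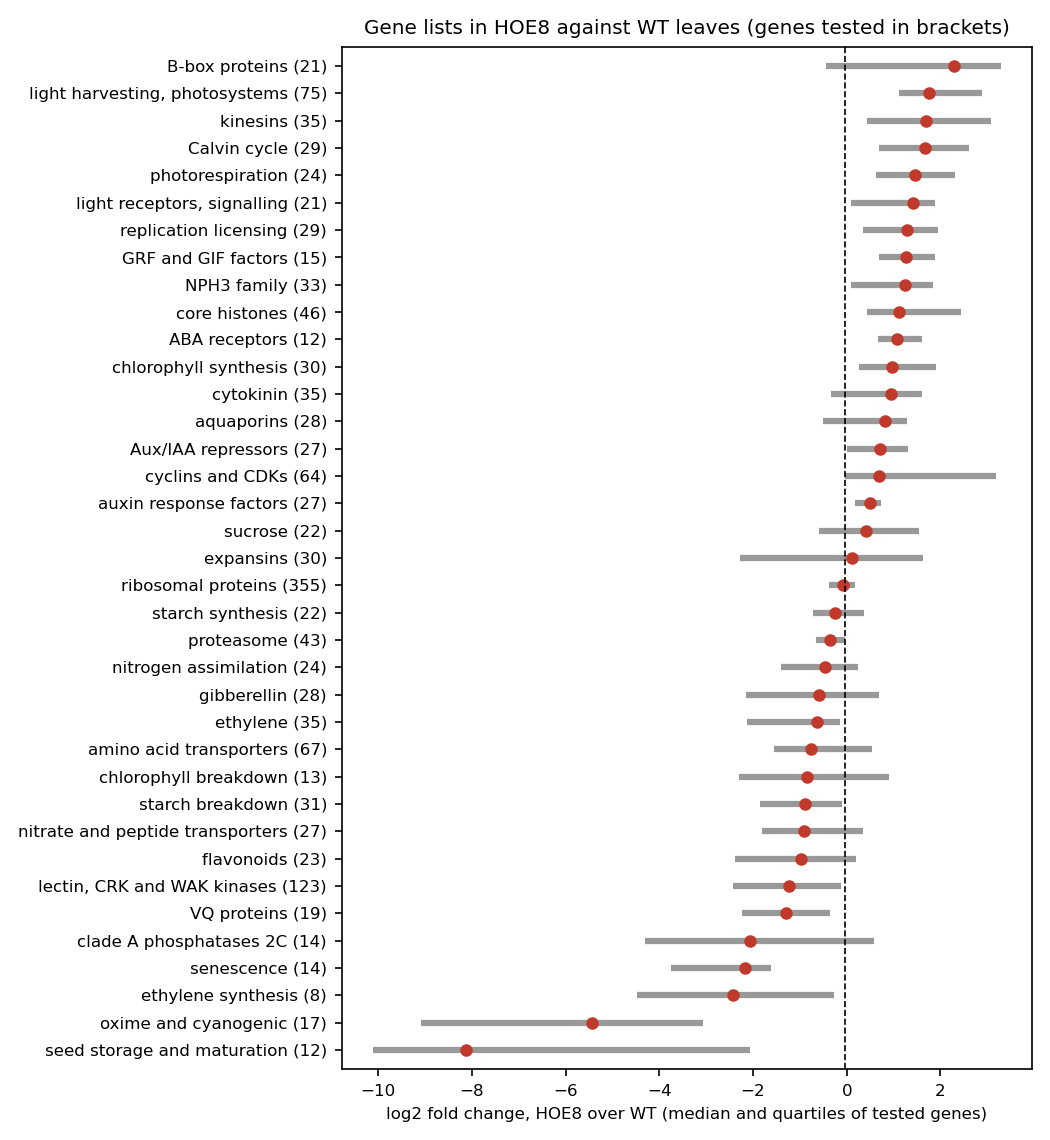
Median log2 fold change of HOE8 over WT for gene lists described below (points), with the quartiles of the tested members as bars. The dashed line is the median of all 23434 genes tested, -0.05; light harvesting, Calvin cycle, photorespiration, chlorophyll synthesis, kinesins and core histones lie to its right, and seed, cyanogenic, senescence, ethylene synthesis, starch breakdown and chlorophyll breakdown to its left.

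Genes that build and light the chloroplast were higher in HOE8 leaves. Of 30 chlorophyll synthesis genes tested, 23 were higher and 3 lower, with a median of 0.96 (23 and 3 without HOE8 library 1). Mg-chelatase subunit CHLH, Manes.08G050600, which puts magnesium into protoporphyrin, measured 25.7, 27.9 and 26.1 CPM in the WT libraries and 1159, 1385 and 1421 CPM in the HOE8 libraries. All HOE8 libraries lay far above all WT libraries (log2 fold change 5.64 ± 0.089, edgeR adjusted p = 2.4e-12). GUN4, Manes.03G108000, which activates that chelatase, rose from 11.6 ± 0.080 to 154 ± 12.8 CPM, and CRD1, Manes.09G073800, which closes the fifth ring, rose from 134 ± 1.7 to 1345 ± 42.6 CPM. Chlorophyllide a oxygenase, which makes chlorophyll b, was split between copies: Manes.02G163700 rose from 10.9 ± 1.2 to 335 ± 6.5 CPM, and Manes.18G077600 fell from 27.6 ± 3.2 to 1.69 ± 0.17 CPM. The second copy stood at 61.5 ± 15.3 CPM in HOE1.

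Genes of chlorophyll breakdown went the other way in most cases, with 8 of 13 lower and 4 higher. Mg-dechelatase SGR1, Manes.01G069700, which starts the pathway in senescing leaves, measured 176, 166 and 178 CPM in the WT libraries and 7.41, 6.05 and 6.45 CPM in the HOE8 libraries. Its groups did not overlap (log2 fold change -4.7 ± 0.081, edgeR adjusted p = 3.8e-12). Chlorophyll b reductase NYC1 fell in 2 copies, from 74.7 ± 1.1 to 15.2 ± 0.58 CPM for Manes.16G115400 and from 201.1 ± 6.5 to 51.3 ± 2.1 CPM for Manes.03G021500. Red chlorophyll catabolite reductase, Manes.13G124600, fell from 77.9 ± 6.1 to 11.4 ± 0.31 CPM. HCAR, Manes.15G048100, which turns chlorophyll b back towards a, rose from 36.4 ± 2.3 to 91.8 ± 1.2 CPM.

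Genes of carbon fixation were also mostly higher. The Calvin cycle list had 24 of 29 genes higher and 2 lower, with a median of 1.67 (22 and 2 without HOE8 library 1). Rubisco activase Manes.10G027600 was the extreme, 24.3-fold higher. Sedoheptulose-bisphosphatase, Manes.10G018100, a step that regenerates the acceptor of CO2, measured 65.1, 64.0 and 66.6 CPM in the WT libraries and 700.3, 612 and 603 CPM in the HOE8 libraries. Every HOE8 library stood several times above every WT library (log2 fold change 3.29 ± 0.065, edgeR adjusted p = 8.6e-12). Fructose-bisphosphate aldolase Manes.04G083800 rose from 337 ± 6.9 to 2962 ± 159 CPM, and glyceraldehyde 3-phosphate dehydrogenase subunit B Manes.05G125200 rose from 34.4 ± 2.8 to 239.8 ± 15.6 CPM. Light-harvesting and photosystem genes numbered 75, with 64 higher and 4 lower and a median of 1.76 (64 and 5 without HOE8 library 1). Antenna genes of photosystem II lie next to each other as close copies, and the counts of single copies are uncertain: Manes.17G066900 measured 29.1 CPM in HOE8 library 1 and 638 and 633 CPM in libraries 2 and 3.

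Photorespiration, which recovers the carbon of phosphoglycolate made when Rubisco takes oxygen, had mostly higher genes. Of 24 genes tested, 18 were higher and 5 lower, with a median of 1.46 (18 and 5 without HOE8 library 1). The P-protein of glycine decarboxylase, Manes.16G080300, which releases CO2 from glycine in mitochondria, measured 279, 274 and 272 CPM in the WT libraries and 1868, 2454 and 2433 CPM in the HOE8 libraries. The groups did not overlap (log2 fold change 3.03 ± 0.092, edgeR adjusted p = 1.9e-10). Glycolate oxidase Manes.15G123100 rose from 571 ± 18.4 to 2401 ± 57.8 CPM, and the peroxisomal aminotransferase AGT1, Manes.02G141600, rose from 361 ± 7.3 to 2286 ± 43.5 CPM. Plastid dicarboxylate transporters rose in Manes.14G002500 (from 4.17 ± 1.1 to 52.1 ± 5.1 CPM) and Manes.07G035300 (from 4.75 ± 0.57 to 57.8 ± 6.4 CPM). Catalase 2 genes were divided: Manes.02G113300 rose from 127 ± 1.5 to 1901 ± 95 CPM, while Manes.05G130500 fell from 3915 ± 28.9 to 1815 ± 8.8 CPM and Manes.18G004500 fell from 1474 ± 36.5 to 822 ± 65.9 CPM. Summed over the list, photorespiration genes took 1.01% to 1.03% of reads in WT and 1.86% to 1.93% in HOE8.

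**Figure D2:**
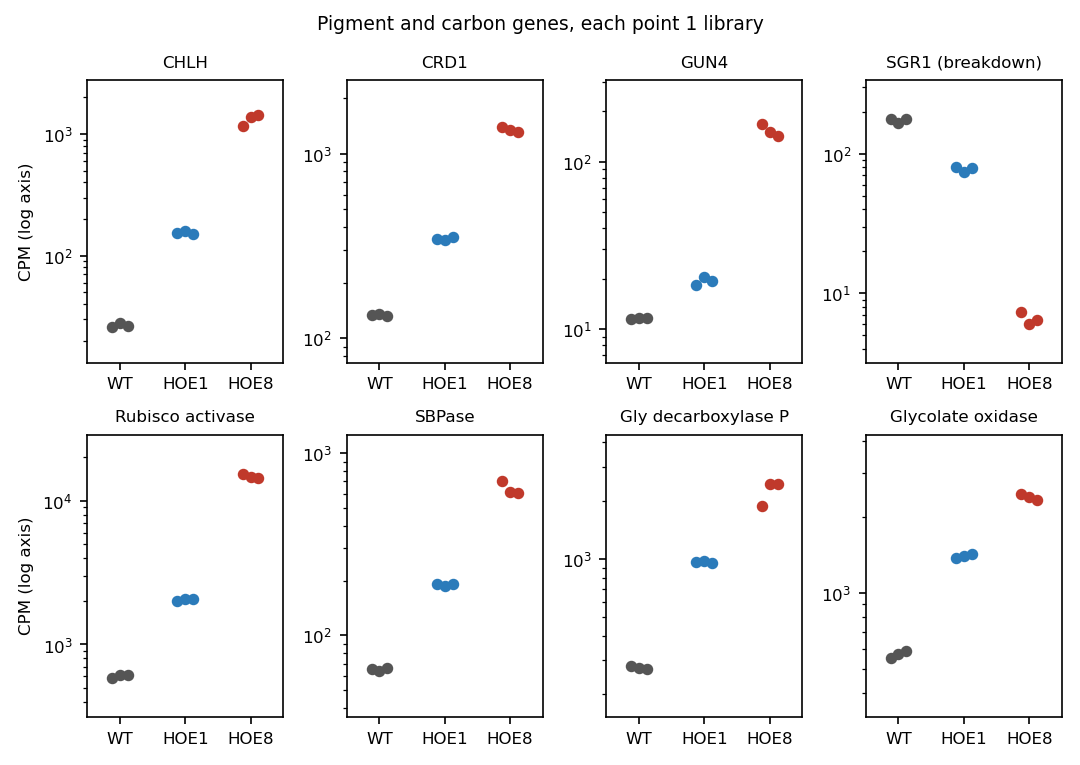
CPM on a log axis in each of the 9 libraries for 8 genes of chlorophyll synthesis, chlorophyll breakdown, the Calvin cycle and photorespiration. Each point is 1 library. CHLH rises from 26.6 CPM in WT to 1321 CPM in HOE8, SGR1 falls from 173 to 6.64 CPM, and the HOE1 mean lies between the other means for all 8 genes shown.

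Genes of starch breakdown, which feeds the leaf at night, were mostly lower. Glucan kinases and phosphatases open the granule surface, after which amylases and debranching enzymes cut it and cytosolic enzymes handle the maltose. Of 31 genes, 20 were lower and 6 higher, with a median of -0.88 (21 and 6 without HOE8 library 1). The debranching enzyme isoamylase 3, Manes.18G063500, measured 169, 164 and 171 CPM in the WT libraries, 158, 159 and 159.5 CPM in the HOE1 libraries and 12.6, 7.83 and 9.02 CPM in the HOE8 libraries. HOE8 stood below both other groups (against WT, log2 fold change -4.1 ± 0.13, edgeR adjusted p = 3.3e-10; against HOE1, log2 fold change -4.01 ± 0.13, edgeR adjusted p = 6e-10). HOE8 was also lowest for glucan water dikinase GWD1, Manes.13G026800, at 360.3 ± 4.3, 346 ± 4.1 and 76.6 ± 11.8 CPM in WT, HOE1 and HOE8. It was lowest for the maltose-processing enzyme DPE2, Manes.08G162200, at 118 ± 0.68, 118 ± 1.9 and 23.7 ± 2.3 CPM. The glucan phosphatase SEX4, Manes.10G053500, stood at 55.4 ± 2.4, 60.8 ± 2.4 and 13.7 ± 0.78 CPM. HOE8 was called lower than HOE1 for each of these (log2 fold changes -2.17, -2.31 and -2.14). The maltose exporter MEX1, Manes.08G159200, went against the list and rose from 30.2 ± 1.8 to 72.8 ± 3.6 CPM.

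**Figure D3:**
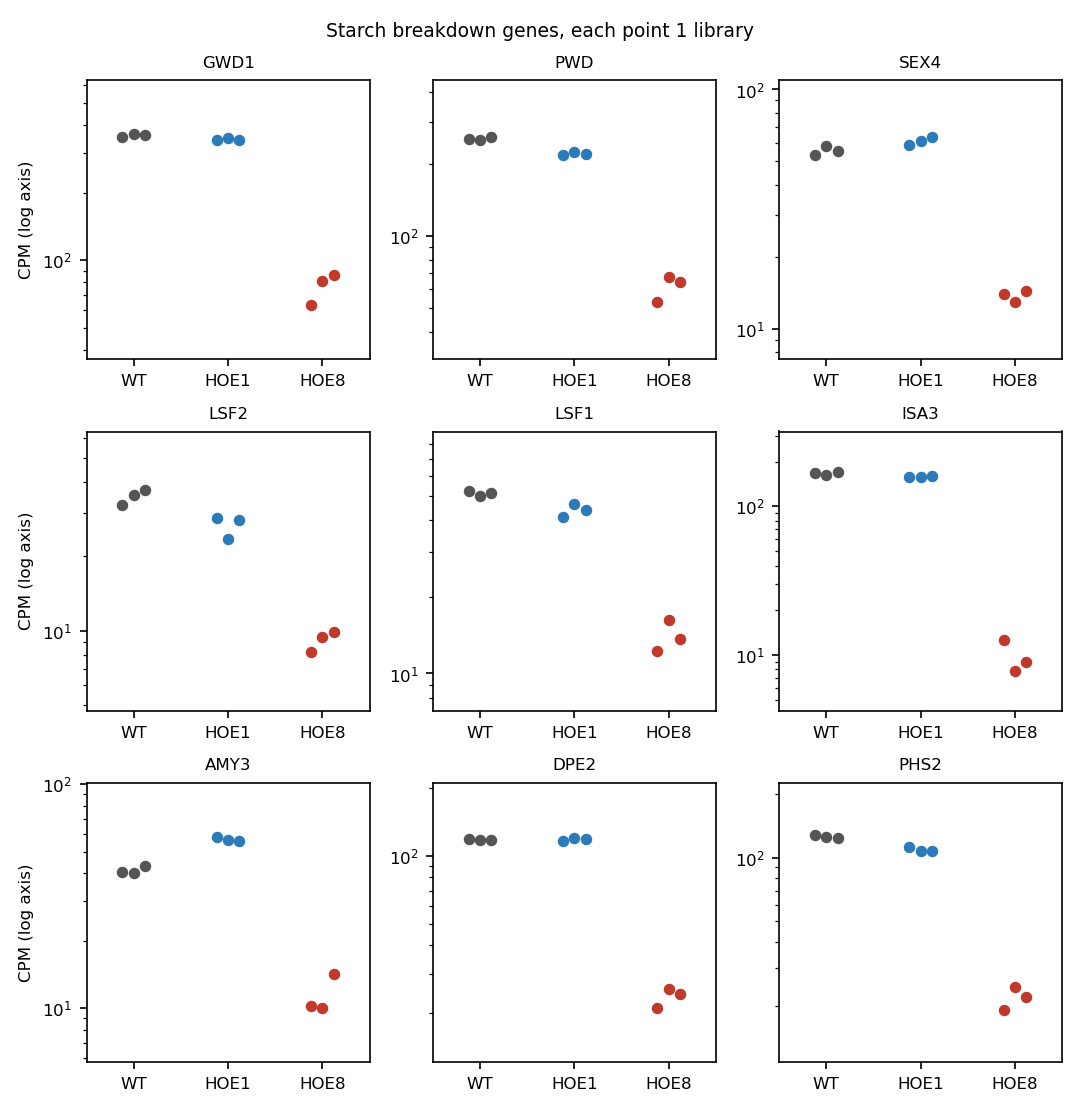
CPM on a log axis in each library for 9 starch breakdown genes, from the kinases that phosphorylate the granule to cytosolic enzymes of maltose and glucan use. Each point is 1 library, and the HOE8 points lie below the WT and HOE1 points in all 9 panels. The panels show only lower members of the list. The 6 of 31 tested genes that were higher than in WT, MEX1 among them, are not drawn.

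Starch and sucrose synthesis showed no common direction. Of 22 starch synthesis genes, 6 were higher and 10 lower, led by granule-bound starch synthase Manes.02G001000, which makes amylose and rose from 63.8 ± 2.1 to 530.2 ± 36.4 CPM. Of 22 sucrose genes, 11 were higher and 7 lower. Among genes of sucrose synthesis, sucrose-phosphate synthase Manes.15G055400 rose from 21.9 ± 0.42 to 168 ± 20.8 CPM, as did cytosolic fructose-bisphosphatase Manes.18G091300 (from 31.1 ± 1.6 to 185 ± 3.0 CPM). Vacuolar invertase Manes.06G135500 rose from 15.9 ± 0.83 to 142 ± 6.5 CPM, whereas cell wall invertase Manes.11G025400 fell from 168 ± 3.7 to 18.2 ± 1.1 CPM and sucrose synthase Manes.02G081500 fell from 280.4 ± 5.3 to 30.0 ± 2.5 CPM. The phloem-loading transporter SUC2, Manes.18G099400, measured 259.5, 248 and 244 CPM in the WT libraries and 54.9, 51.3 and 52.2 CPM in the HOE8 libraries. It fell without overlap (log2 fold change -2.25 ± 0.052, edgeR adjusted p = 2.6e-11), and SWEET family exporter Manes.17G062900 rose from 14.8 ± 1.0 to 90.9 ± 10.2 CPM.

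Clock genes differed beside these groups, and many genes of starch, light capture and photorespiration cycle over the day in Arabidopsis. The morning factor LHY, Manes.01G239000, stood at 5.33 ± 0.50 CPM in WT and 1252 ± 160.0 CPM in HOE8, and the evening gene GI, Manes.18G095000, at 480.4 ± 6.9 and 1.05 ± 0.30 CPM. In HOE1 these genes measured 8.62 ± 0.25 and 466 ± 5.2 CPM, near the WT values. Since no time of collection is given, a difference between lines and a difference in the time of sampling cannot be told apart for these groups. The same limit holds for every other difference between HOE8 and WT given here, the light signalling genes below among them.

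Genes of light perception were mostly higher in HOE8. Of 21 genes of light receptors and their signalling, 14 were higher and 4 lower, with a median of 1.42. The blue light receptor cryptochrome 1, Manes.18G067300, measured 17.6, 17.3 and 16.9 CPM in the WT libraries and 152, 163 and 164 CPM in the HOE8 libraries. Its groups did not overlap (log2 fold change 3.21 ± 0.057, edgeR adjusted p = 4.8e-12). HYH, Manes.12G040300, a bZIP factor that acts beside HY5, rose from 10.8 ± 2.1 to 50.2 ± 1.7 CPM, while PIF3, Manes.08G107100, a repressor of greening in the dark, fell from 71.7 ± 3.5 to 33.0 ± 3.8 CPM. B-box proteins, zinc finger regulators of light responses, had 15 of 21 higher and 5 lower, with a median of 2.29. Manes.15G067100 measured 2.33, 2.01 and 2.47 CPM in the WT libraries and 401, 332 and 341 CPM in the HOE8 libraries, a rise of 157-fold. Of 33 NPH3 family genes, which include partners of the phototropins, 22 were higher and 2 lower, and Manes.02G218100 rose from 26.2 ± 0.70 to 512 ± 19.2 CPM. CONSTANS-like 2, Manes.02G062700, a factor of the family that reads day length, rose from 2.31 ± 0.49 to 423 ± 24.4 CPM. Plastid sigma factors, which guide the plastid RNA polymerase, had 6 of 8 higher and 1 lower.

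Most lists of cell division genes held more higher than lower members in HOE8. Tubulins, subunits of microtubules, did not, with 7 of 24 higher and 12 lower. Core histones had 39 of 46 genes higher and 4 lower (37 and 4 without HOE8 library 1). Of 29 genes of replication licensing, 20 were higher and 4 lower, and of 64 cyclins, cyclin-dependent kinases and their partners 41 and 11. Cyclin D3;1, Manes.07G076800, which promotes entry into the cycle, measured 0.412, 0.388 and 0.470 CPM in the WT libraries and 25.1, 23.5 and 22.7 CPM in the HOE8 libraries. The HOE8 libraries lay above all WT libraries (log2 fold change 5.78 ± 0.18, edgeR adjusted p = 2e-10), and HOE1 stood at 1.501 ± 0.35 CPM. Of 35 kinesins, motors of the spindle and phragmoplast among them, 27 were higher and 3 lower, with a median of 1.69. The phragmoplast orienting kinesin POK2, Manes.15G144100, rose from 0.621 ± 0.19 to 8.21 ± 2.0 CPM. Of 19 growth-regulating factors and their interactors, which prolong division in leaves, 15 were tested, 11 were higher and 2 lower. The cyclin, kinesin and core histone lists held 75, 38 and 53 genes, of which 64, 35 and 46 were tested. Members near 0 in WT could pass the count filter only through the other groups, so these counts describe only the genes read. GRF5, Manes.03G039500, had 2 reads over WT libraries and 6.66 ± 0.35 CPM in HOE8, a ratio of 157-fold (95% exact counting interval 43.0 to 1302).

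Most shoot meristem markers that were tested were also higher. Of 14 genes on that list 9 were tested, 8 were higher and 1 lower. The summed level of the list ran from 26.1 to 27.9 CPM in WT and from 86.7 to 95.5 CPM in HOE8. Markers near 0 in WT could pass the count filter only through the other groups, so the count describes only the genes read. KNAT1, Manes.05G184900, a KNOX homeobox gene of the meristem, measured 1.097, 0.712 and 0.763 CPM in the WT libraries and 13.5, 17.3 and 14.4 CPM in the HOE8 libraries. Each HOE8 library stood above each WT library (log2 fold change 4.13 ± 0.20, edgeR adjusted p = 7.5e-09). STM, Manes.16G003000, rose from 1.01 ± 0.32 to 9.57 ± 0.66 CPM, and LAS, Manes.01G008100, a GRAS factor of axillary meristems, had 2 reads in WT and 12.8 ± 2.8 CPM in HOE8, a ratio of 301.4-fold (95% exact counting interval 83.0 to 2495). Another LAS match went the other way, with reads in WT and 0 reads in HOE8. Among genes of the stomatal lineage, the factor SPCH, Manes.06G157200, had 3 reads in WT and 3.26 ± 0.80 CPM in HOE8, a ratio of 51.3-fold (95% exact counting interval 17.2 to 252), and the receptor-like protein TMM, Manes.11G057100, rose from 0.526 ± 0.10 to 3.34 ± 0.37 CPM, with 0.156 ± 0.036 CPM in HOE1. The 2 matches of WUS, the gene that defines the stem cell niche, had 1 and 0 reads over the WT libraries and 0 reads over the HOE8 libraries. The part of meristem cells in the results on division was not tested. In bulk samples, fewer cells of a type and less RNA per cell cannot be told apart.

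Markers of other cell types gave mixed counts, with 9 epidermal, 11 guard cell, 17 phloem, 25 xylem and 15 root genes on the lists, of which the tested ones are given. Mesophyll markers are also genes of carbon fixation (Rubisco small subunit and activase) and light capture, so they repeat results given above. They had 6 of 8 tested higher and 1 lower, and their sum ran from 3629.7 to 3986 CPM in WT and from 23936 to 27159 CPM in HOE8. Epidermal markers had 2 of 7 higher and 5 lower, with sums of 920.3 to 930.3 and 444 to 452 CPM. Lipid transfer protein 1, Manes.08G171700, fell from 333 ± 8.9 to 34.9 ± 4.1 CPM, while PDF2, Manes.16G011100, a homeobox factor of epidermal identity, rose from 16.5 ± 1.2 to 28.2 ± 2.2 CPM. Guard cell markers had 7 of 11 higher and 2 lower, with sums of 111 to 115 and 172 to 174 CPM. Phloem markers had 7 of 11 higher and 2 lower, with sums of 321 to 338 and 150.2 to 153 CPM, the fall of the sum lying in SUC2. Xylem markers had 9 of 16 higher and 3 lower, with sums of 48.2 to 50.9 and 68.4 to 77.0 CPM, and root markers 3 and 3 of 8, with sums of 101.2 to 110.1 and 68.7 to 76.9 CPM.

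Genes of wall loosening were exchanged within families. Expansins loosen the wall in growing cells, and 14 of 30 were higher and 14 lower. Alpha-expansins that rose included Manes.02G131900, matching EXPA4 (from 2.04 ± 0.082 to 30.4 ± 1.5 CPM), and Manes.07G140700, matching EXPA8 (from 4.03 ± 0.64 to 56.6 ± 3.4 CPM). The expansin-like gene Manes.01G087800, matching EXLB1, measured 89.9, 78.5 and 78.5 CPM in the WT libraries and 2.80, 1.40 and 2.201 CPM in the HOE8 libraries. Its groups did not overlap (log2 fold change -5.26 ± 0.15, edgeR adjusted p = 1.4e-10). Inhibitors of pectin methylesterase and invertase carry either of 2 descriptions in the table. Under one, 11 of 16 were lower and 4 higher, with a median of -1.18, and under the other 7 of 23 were lower and 9 higher, with a median of 0.13. Manes.17G081100 fell from 211 ± 3.4 to 2.42 ± 0.39 CPM, yet Manes.03G045600 had 2 reads in WT and 14.01 ± 0.61 CPM in HOE8, a ratio of 329.8-fold (95% exact counting interval 90.9 to 2730.1). Laccases, oxidases of the wall, had 7 of 14 higher and 5 lower, and laccases 7 and 14 fell from 216 ± 8.9 to 1.91 ± 0.22 CPM (Manes.08G083300) and from 53.6 ± 2.8 to 0.452 ± 0.072 CPM (Manes.02G187200). Aquaporins, water channels of plasma membrane and vacuole, had 18 of 28 higher and 8 lower, with a median of 0.81.

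Among hormones, ethylene genes were mostly lower. Of 35 genes of the pathway, 25 were lower and 2 higher (25 and 3 without HOE8 library 1). Of 13 synthesis genes 8 were tested, 6 were lower and 0 higher. Members near 0 in HOE8 could pass the count filter only through the other groups, so these counts do not stand for the whole list. ACC synthase Manes.05G029900, which makes the precursor ACC, measured 17.4, 19.9 and 19.96 CPM in the WT libraries and 0.0756, 0.310 and 0.0734 CPM in the HOE8 libraries. It was nearly silent in every HOE8 library (log2 fold change -6.9 ± 0.26, edgeR adjusted p = 1e-09). ACC oxidase Manes.12G069300, the last step, fell from 157 ± 1.9 to 12.2 ± 0.31 CPM, whereas Manes.16G002300 held 528 ± 11.9 CPM in WT and 487 ± 40.4 CPM in HOE8 and was not called. Of 7 receptors, 5 were lower and 0 higher. ETR2 copies fell from 184 ± 3.1 to 28.6 ± 2.5 CPM (Manes.03G167400) and from 284 ± 14.9 to 69.3 ± 2.7 CPM (Manes.15G037700), and ETR1, Manes.10G045000, fell from 258 ± 2.5 to 75.2 ± 5.2 CPM. The response factor ERF1, Manes.17G051600, fell from 25.9 ± 1.1 to 1.19 ± 0.53 CPM.

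Genes of abscisic acid (ABA) signalling are given by role, and differences between the roles were not tested. Receptors of the PYR and PYL family bind the hormone and then inhibit clade A protein phosphatases 2C, which hold the pathway off. Of 12 receptors, 10 were higher and 1 lower, with a median of 1.06. PYR1, Manes.17G013400, measured 3.57, 3.36 and 3.46 CPM in the WT libraries and 32.4, 26.9 and 25.7 CPM in the HOE8 libraries. The groups did not overlap (log2 fold change 3.03 ± 0.12, edgeR adjusted p = 1.3e-09). PYL6, Manes.07G135200, rose from 3.61 ± 0.44 to 17.5 ± 0.72 CPM, and PYL4, Manes.10G007900, rose from 1.47 ± 0.11 to 8.71 ± 0.95 CPM. Of 14 clade A phosphatases, 9 were lower and 4 higher, with a median of -2.07. Manes.01G168600, matching HAI3, a phosphatase induced by ABA in Arabidopsis, measured 67.9, 67.7 and 64.2 CPM in the WT libraries and 1.36, 1.55 and 1.25 CPM in the HOE8 libraries. HOE8 libraries were all below 2 CPM (log2 fold change -5.58 ± 0.11, edgeR adjusted p = 7.8e-12), and 2 further HAI3 matches, Manes.06G158800 and Manes.02G128000, fell from 63.3 ± 1.9 to 1.56 ± 0.084 CPM and from 92.3 ± 4.4 to 3.85 ± 0.099 CPM. AHG1, Manes.06G139900, fell from 26.7 ± 1.0 to 2.34 ± 0.21 CPM, and AHG3, Manes.07G119400, fell from 191 ± 11.7 to 32.6 ± 4.8 CPM. Of 13 kinases and transcription factors of the pathway, 2 were higher and 7 lower. HAB1 matches ran both ways, from Manes.16G109500 (from 33.2 ± 2.6 to 7.33 ± 1.2 CPM) to Manes.04G142100 (from 124 ± 43.2 to 303.02 ± 7.8 CPM). In ABA synthesis, the NCED dioxygenases were also divided, with Manes.15G102000 falling from 10.1 ± 0.59 to 1.21 ± 0.29 CPM and Manes.15G122400 rising from 1.15 ± 0.087 to 13.9 ± 0.63 CPM.

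**Figure D4:**
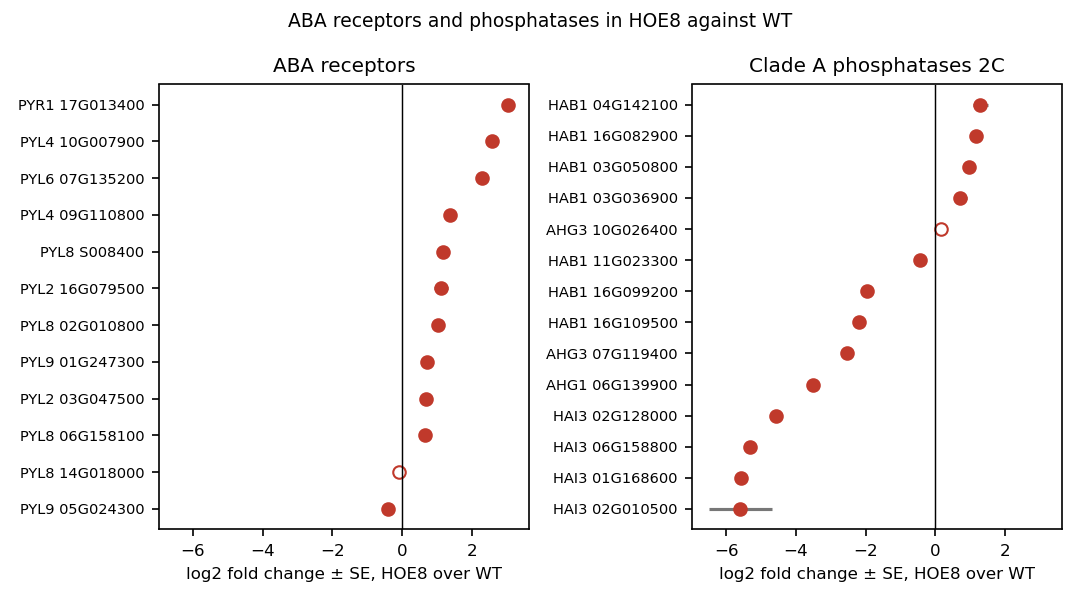
Log2 fold change of HOE8 over WT with its SE for the 12 ABA receptor genes and 14 clade A phosphatase genes tested. Filled points were called at an adjusted p under 0.05; receptors lie mostly above 0, and 8 phosphatases lie at -1 or below.

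Cytokinin genes were mostly higher, with 23 of 35 higher and 8 lower. Type-A response regulators, whose transcripts rise with the hormone and dampen its signal in Arabidopsis, had 7 of 10 higher and 1 lower. Manes.18G111900, matching ARR3, rose from 28.5 ± 3.3 to 69.5 ± 9.0 CPM. Cytokinin oxidases, which degrade the hormone, had 6 of 7 higher and 1 lower. CKX7, Manes.16G085500, measured 27.5, 27.6 and 26.9 CPM in the WT libraries and 103.1, 112 and 101.96 CPM in the HOE8 libraries and did not overlap (log2 fold change 1.95 ± 0.056, edgeR adjusted p = 1.3e-10), while CKX6, Manes.04G163300, fell from 15.8 ± 2.2 to 0.962 ± 0.39 CPM. For gibberellin, 14 of 28 genes were lower and 9 higher, with the synthesis enzyme GA20OX1, Manes.06G141200, falling from 299.9 ± 5.3 to 40.2 ± 1.1 CPM and the receptor GID1C, Manes.09G161600, rising from 117 ± 5.1 to 264 ± 2.9 CPM. DWF4, Manes.02G093100, the rate-limiting enzyme of brassinosteroid synthesis, fell from 90.6 ± 3.1 to 12.1 ± 0.73 CPM. For auxin, 17 of 27 response factors and 18 of 27 Aux/IAA repressors were higher, with 3 and 4 lower, whereas 7 of 11 GH3 conjugating enzymes were lower and 2 higher.

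Jasmonate genes had 18 of 44 lower and 15 higher, close to the shares over all genes. The JAZ2 repressor match Manes.03G042500 fell from 30.4 ± 2.9 to 1.35 ± 0.61 CPM, and allene oxide synthase Manes.05G166200, an early step of synthesis, fell from 186 ± 2.0 to 50.9 ± 1.2 CPM.

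Receptor kinases of the cell surface, many of them linked to defence, are given by class. Of 214 leucine-rich repeat receptor kinases, 90 were higher and 70 lower, with a median of 0.15. Of 204 lectin, cysteine-rich and wall-associated receptor kinases 123 were tested, 83 were lower and 17 higher, with a median of -1.24 (83 and 16 without HOE8 library 1). Members near 0 in HOE8 could pass the count filter only through the other groups. This count and that of VQ proteins below therefore describe only the genes read. The S-locus lectin kinase Manes.17G012100 measured 41.2, 42.9 and 40.0 CPM in the WT libraries and 0.832, 1.32 and 1.25 CPM in the HOE8 libraries. It fell without overlap (log2 fold change -5.18 ± 0.12, edgeR adjusted p = 2.9e-11). VQ proteins, partners of WRKY factors, had 13 of 19 lower and 1 higher. The 2 matches of PAD4, a hub of salicylate-dependent immunity, fell, Manes.12G159500 from 128 ± 10 to 18.9 ± 4.4 CPM and Manes.12G147100 from 133 ± 2.9 to 21.9 ± 1.7 CPM. Of 242 NBS-LRR receptors, the intracellular class, 86 were higher (35.5%), near the share of 33.7% over all genes. Fewer were lower, at 54 (22.3%), than the 38.2% over all genes. Manes.13G134200 of that class rose from 10.95 ± 0.13 to 231 ± 42.6 CPM. Chitinases and other pathogenesis-related proteins were divided evenly, with 30 higher and 28 lower of 73. Chitinases matching EP3 fell in 2 genes, Manes.11G130700 from 163 ± 3.5 to 4.90 ± 0.092 CPM and Manes.11G128200 from 41.5 ± 0.79 to 0.881 ± 0.22 CPM. The CAP family gene Manes.06G026900 rose from 1.004 ± 0.14 to 58.1 ± 6.8 CPM and measured 0.221 ± 0.096 CPM in HOE1.

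Transcripts that mark leaf ageing and passed the count filter were mostly lower in HOE8. Of 29 genes on the senescence list 14 were tested, 12 were lower and 1 higher, with a median of -2.17 (12 and 1 without HOE8 library 1). Members near 0 in HOE8 could pass that filter only through the other groups, so these counts do not stand for the whole list. The protease gene SAG12, Manes.16G038400, measured 500.2, 503 and 515 CPM in the WT libraries, 35.6, 41.9 and 37.2 CPM in the HOE1 libraries and 0.378, 0.233 and 0.220 CPM in the HOE8 libraries. The 3 groups did not overlap, in the order WT, HOE1, HOE8, and HOE8 lay below HOE1 as well (log2 fold change -7.07 ± 0.13, edgeR adjusted p = 1.1e-11). The nuclease BFN1, Manes.16G022200, stood at 33.6 ± 1.5, 27.4 ± 2.1 and 2.85 ± 0.62 CPM in WT, HOE1 and HOE8. The SWEET family gene SAG29, Manes.13G006800, fell from 99.3 ± 2.2 to 6.74 ± 1.4 CPM but was lower still in HOE1, at 1.36 ± 0.17 CPM (HOE8 against HOE1, edgeR adjusted p = 3e-07). NAP, Manes.07G042400, a NAC factor that promotes senescence in Arabidopsis, went against the list and rose from 2.82 ± 0.41 to 6.50 ± 1.4 CPM.

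Seed genes that were read in WT leaves were mostly lower in HOE8. The list holds storage proteins, oil body proteins and regulators of seed maturation, and was written after values had been seen. Of 24 genes on it, 12 passed the count filter, 11 were lower and 1 higher (12 and 1 without HOE8 library 1). A gene silent in HOE8 could pass the filter only through the other groups, so the count is a description of the genes read. Seed storage albumin Manes.03G123400 measured 34.2, 36.5 and 36.4 CPM in the WT libraries and 0.0756, 0 and 0 CPM in the HOE8 libraries, a ratio of 1422-fold (95% exact counting interval 255 to 56199). Oleosin 1, Manes.06G131000, which coats oil bodies, had 604 reads in WT and was at least 170.0-fold lower. EM6, Manes.10G010700, a late embryogenesis protein, was at least 157-fold lower, and storage albumin Manes.15G075900 at least 139.9-fold lower. The peroxiredoxin PER1, Manes.03G210400, a seed antioxidant, measured 28.1 ± 2.3 CPM in WT with 1 read in HOE8, a ratio of 1110.4-fold (95% exact counting interval 199 to 43892). ABI3, Manes.13G043500, the B3 factor that directs maturation in Arabidopsis seeds, measured 5.08, 4.14 and 4.11 CPM in the WT libraries, 14.6, 13.8 and 14.4 CPM in the HOE1 libraries and 0, 0 and 0 CPM in the HOE8 libraries. It had 0 reads in HOE8, at least 58.5-fold lower than in WT, while HOE1 lay above WT (log2 fold change 1.68 ± 0.12, edgeR adjusted p = 3.3e-06). Late embryogenesis abundant proteins as a wider list had 34 of 53 lower and 11 higher.

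The tested genes matching cyanogenic and related oxime metabolism were mostly lower. CYP79 enzymes make oximes from amino acids, later P450 enzymes convert them, and hydroxynitrile lyase releases cyanide from cyanohydrins once tissue is broken. Of 31 matches, a list also written after values had been seen, 17 were tested, 15 lower and 1 higher (15 and 0 without HOE8 library 1). A gene near 0 in HOE8 could enter the test only through its reads in the other groups, so these counts do not stand for the whole list. Manes.05G139400, matching CYP83B1 (chromosome 5, 19701065 to 19702836), measured 509.6, 524 and 533 CPM in the WT libraries, 12.1, 10.4 and 10.5 CPM in the HOE1 libraries and 1.21, 0.388 and 0.367 CPM in the HOE8 libraries. Both lines were far below WT, and HOE8 below HOE1 (log2 fold change -4.06 ± 0.25, edgeR adjusted p = 8.6e-08). The CYP79B2 match Manes.12G133500 fell from 53.9 ± 2.6 to 0.125 ± 0.041 CPM and stood at 0.230 ± 0.23 CPM in HOE1. The hydroxynitrile lyase match Manes.13G092100 measured 2836, 3424 and 3687 CPM in the WT libraries and 444, 366 and 370.1 CPM in the HOE8 libraries. It fell without overlap (log2 fold change -3.08 ± 0.10, edgeR adjusted p = 3.7e-10). The CYP83B1 matches lie close together on chromosome 5 and may share reads, and the CYP79 and CYP83 names come from Arabidopsis, which makes other products from oximes.

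**Figure D5:**
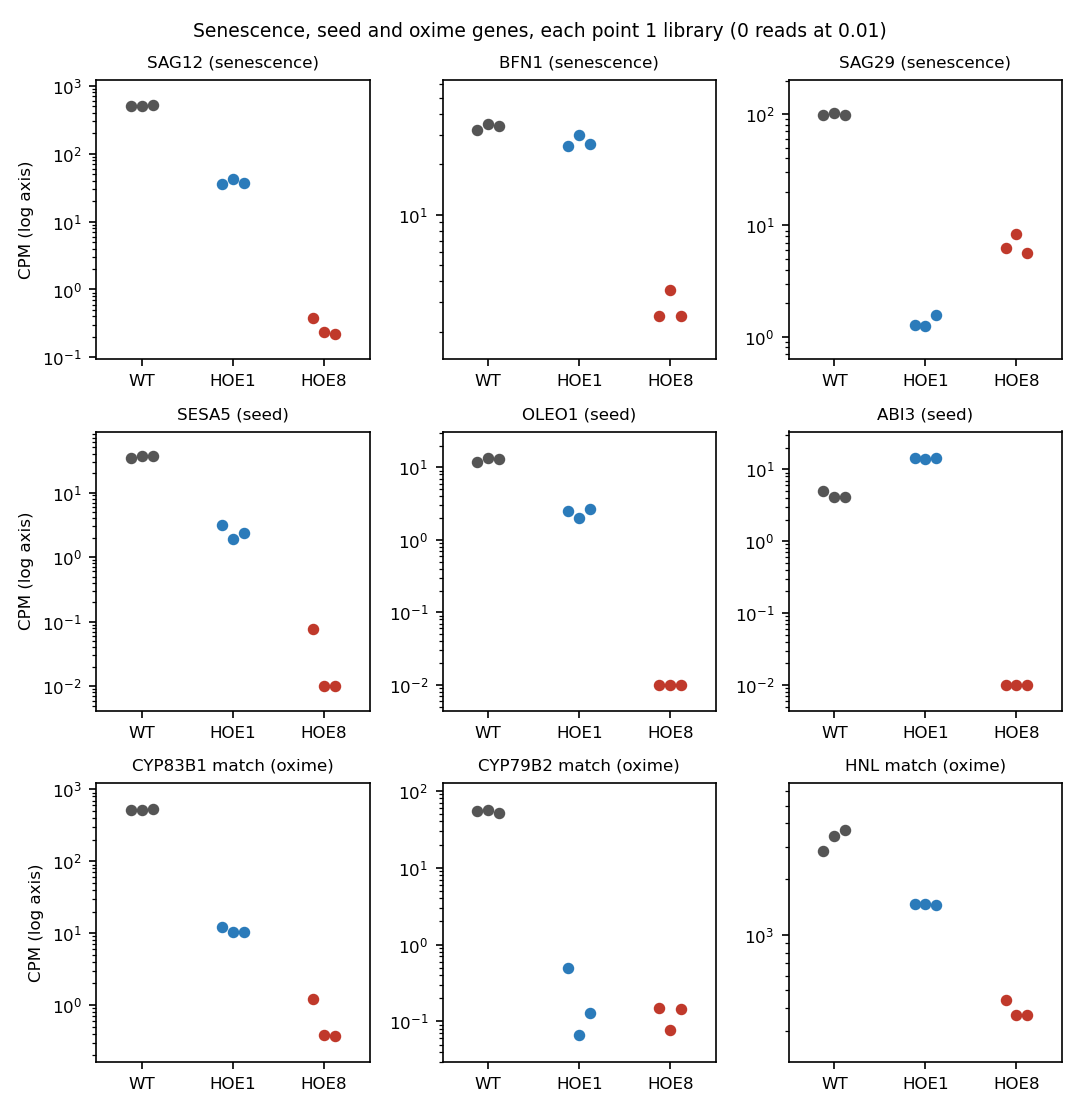
CPM on a log axis (0 reads drawn at 0.01) in each library for 9 genes of senescence, seed maturation and oxime metabolism. Each point is 1 library. SAG12 stands at 506, 38.2 and 0.277 CPM in WT, HOE1 and HOE8, and ABI3 is higher in HOE1 than in WT with 0 reads in HOE8.

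Other branches of secondary metabolism were rearranged. Flavonoid genes had 14 of 23 lower and 6 higher. Enzymes late in anthocyanin synthesis fell, dihydroflavonol reductase Manes.18G022300 from 88.9 ± 4.4 to 2.77 ± 0.43 CPM and anthocyanidin synthase Manes.01G070200 from 19.5 ± 1.6 to 0.659 ± 0.31 CPM. Flavonol synthase Manes.02G160700 rose from 32.5 ± 2.0 to 106 ± 1.7 CPM, and the flavonol regulator MYB111, Manes.03G201700, had 0 reads in WT and 5.54 ± 0.043 CPM in HOE8, at least 86.8-fold higher. HOE1 measured 3.32 ± 0.28 CPM for that reductase and 39.5 ± 0.52 CPM for that flavonol synthase. Hydroxycinnamoyl transferase Manes.06G034900 rose from 17.6 ± 1.8 to 541 ± 31.1 CPM. Carotenoid synthesis and its plastid precursor pathway had 13 of 40 genes higher and 20 lower. Phytoene synthase Manes.01G124200, the entry step, rose from 36.2 ± 0.44 to 280.2 ± 11.6 CPM, and beta-hydroxylase copies changed places: Manes.14G022700 rose from 0.183 ± 0.21 to 41.8 ± 1.3 CPM, while Manes.02G018300 fell from 88.2 ± 4.3 to 1.56 ± 0.42 CPM. Of 214 cytochromes P450, 69 were higher and 105 lower. Matches of CYP714A1, which inactivates gibberellins in Arabidopsis, moved both ways. Manes.18G123400 had 2 reads in WT and 24.1 ± 1.2 CPM in HOE8, a ratio of 567-fold (95% exact counting interval 157 to 4691), and Manes.04G037000 went from 6.76 ± 1.0 CPM to 0 reads, at least 88.9-fold lower.

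Nitrogen genes were mainly lower. Of 24 assimilation genes, 13 were lower and 4 higher. Asparagine synthetase ASN1, Manes.02G212800, which stores nitrogen for transport and is raised in darkened or carbon-starved leaves of Arabidopsis, measured 1029, 976 and 968 CPM in the WT libraries, 3522, 3468 and 3568 CPM in the HOE1 libraries and 119.8, 119.5 and 114 CPM in the HOE8 libraries. The lines moved apart from WT in opposite directions (HOE8 against HOE1, log2 fold change -4.90 ± 0.046, edgeR adjusted p = 4.7e-13). The NADH-dependent glutamate synthase GLT1, Manes.14G017100, rose from 99.9 ± 3.6 to 415 ± 74.7 CPM. Nitrate and peptide transporters had 17 of 27 lower and 7 higher. NRT1.5, Manes.05G061100, which loads nitrate into xylem, fell from 91.9 ± 2.4 to 1.40 ± 0.41 CPM, and NRT1.7, Manes.05G095700, which moves nitrate out of old leaves, fell from 539.6 ± 7.2 to 93.4 ± 5.8 CPM. Amino acid transporters had 38 of 67 lower and 16 higher.

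Of all descriptions shared by at least 15 tested genes, the highest medians belonged to ATP binding microtubule motor proteins (1.72; 14 of 16 higher), the histone superfamily (1.38; 24 of 28), NPH3 proteins (1.24) and a family of nucleic acid binding helicases (1.05; 16 of 19 higher and 0 lower). Thaumatin-like proteins (0.74), leucine-rich receptor kinases (0.70), GRAS factors (0.63), zinc knuckle proteins (0.59), GDSL lipases (0.55) and the LRR and NB-ARC receptors (0.53) completed the 10 highest. The lowest medians belonged to genes described only as WRKY family (-1.85; 14 of 17 lower), receptor-like protein kinase 1 (-1.68, but 0.76 at a minimum count of 50), VQ proteins (-1.29), S-locus lectin kinases (-1.19; 35 of 54 lower), the first of the descriptions of pectin methylesterase inhibitors (-1.18, against 0.13 for the other) and AMP-dependent synthetases (-0.90). The remaining lower families were the CYP82C4 matches (-0.84), glutathione transferases matching tau 7 (-0.81, and -0.431 without HOE8 library 1), concanavalin A-like lectin kinases (-0.75) and class III peroxidases (-0.65). Ribosomal proteins stood near the median of all genes, at -0.07 (78 higher and 133 lower of 355). Without HOE8 library 1 their median was -0.169 (68 higher and 171 lower of 356), where that of all genes was -0.053. They took 3.04% of counted reads in HOE8 library 1 and 2.58% and 2.52% in libraries 2 and 3. Proteasome subunits had 25 of 43 lower and 4 higher, with a median of -0.35.

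Genes of these groups were also tested between HOE8 and HOE1, with no test of a group as a whole. Of 23434 genes, 15577 were called between them (66.5%), 7661 higher in HOE8 (32.7%) and 7916 lower (33.8%). The MeH1.2 candidate Manes.08G136300 was lower in HOE8 (log2 fold change -0.46 ± 0.057, edgeR adjusted p = 3e-05). HOE8 lay above HOE1 in 20 of 29 Calvin cycle genes, 18 of 30 chlorophyll synthesis genes and 37 of 46 core histone genes, and below it in 3, 4 and 1. It lay below HOE1 in 16 of 31 starch breakdown genes, 50 of 85 WRKY factors and 65 of 123 of the receptor kinases named above, and above it in 6, 7 and 16. Other groups, mostly lower against WT, did not keep that direction against HOE1. HOE8 lay above HOE1 in 7 of 14 clade A phosphatases and 11 of 23 flavonoid genes, and below it in 6 and 4. For nitrogen assimilation, 11 of 24 genes were above HOE1 and 9 below, and for late embryogenesis abundant proteins 19 and 19 of 53. Ribosomal proteins were higher in HOE8 than in HOE1 in 199 of 355 and lower in 38. Their values against WT depended on HOE8 library 1, and this count against HOE1 was not repeated without it. For the ethylene receptors ETR2 Manes.15G037700 and ETR1 Manes.10G045000, HOE8 lay slightly below HOE1, at 69.3 ± 2.7 and 80.4 ± 1.3 CPM for the first and 75.2 ± 5.2 and 83.0 ± 2.0 CPM for the second, both far below WT. For dihydroflavonol reductase Manes.18G022300 the lines could not be separated (log2 fold change -0.26 ± 0.13, edgeR adjusted p = 0.19).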

How the data were processed

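RNA of 9 leaf libraries (3 each of WT, HOE1 and HOE8) was read from 1 deposited table with a whole-number read count per gene and library. HISAT2 2.0.4 and StringTie 1.3.0 are named, per the submitters' processing notes, without their roles. No source used here states the genome build, the counting settings or the use of strand, so overlapping and near-identical genes may share reads. The authors' deposited FPKM values, scaled to gene length and library size, were used only to compare levels between genes; they matched the counts within 1% for all 18525 genes checked.

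Counts were tested as deposited with edgeR 4.0.16 (R 4.3.3): TMM scaling, a filter at a minimum count of 10 that left 23434 of 33033 genes, and a two-sided quasi-likelihood test in 1 model over 9 libraries, with p-values adjusted by Benjamini and Hochberg's method across the tested genes and calls at 0.05. SE is the absolute log2 fold change over the square root of F. Totals of 13272047 to 16378389 reads set the precision, with a common biological coefficient of variation of 12.1%. For a group with 0 reads, folds are lower bounds set against 3 reads over its libraries; intervals of ratios are 95% exact binomial and cover counting error only, since reads are not independent molecules.

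Counts simulated for HOE8 against WT over 22546 genes gave calls for 44.8% of the 67 genes set to a 1.5-fold change, 85.1% of another 67 at 2-fold and all 66 at 4-fold (100%). Another 7 calls fell among 22346 genes with no change. Few genes were changed in the simulation, whereas 71.9% of genes were called in the data. These shares therefore do not carry over to the comparison of HOE8 with WT. Deviations of same-numbered libraries of different groups had correlations of 0.0254, -0.0175 and 0.0201, so replicate numbers were not taken to pair libraries. Alternatives were other scalings, filters, DESeq2 1.42.0, the 6 libraries of HOE8 and WT alone, a replicate block and leaving out each library.

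Gene lists came from Arabidopsis best matches or words of the description. Members, lists and tests were chosen with earlier results of these data known, and the lists for seed genes, oxime metabolism, the Calvin cycle and roles within hormone pathways were written after values had been seen. Lists are described by counts and medians, with no test. Genes named are the 6 linker histones, the 15 largest rises and 15 largest falls with at least 5 CPM in the higher group, up to 4 called genes per direction in each list or family by size of change, any tested member of a best-match list, and the 10 most abundant genes of each group.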

Additional observations from a re-analysis of the deposited data

Results flagged for a closer look

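For 5 genes named above, HOE8 and HOE1 were both called against WT at 2-fold or more but in opposite directions, and the lines were then compared directly (log2 fold change of HOE8 over HOE1, edgeR's quasi-likelihood test). Asparagine synthetase Manes.02G212800 differed by -4.90 (edgeR adjusted p = 4.7e-13), with 991 ± 33.2 CPM in WT, 3519 ± 50 in HOE1 and 118 ± 3.2 in HOE8. The CAP family gene Manes.06G026900 differed by 7.97 (edgeR adjusted p = 4.7e-11). TMM, Manes.11G057100, of the stomatal lineage, differed by 4.35 (edgeR adjusted p = 1.7e-07). ABI3, Manes.13G043500, differed by -10.70, with 0 reads in HOE8 so that this size depends on the model's prior count. The chlorophyllide a oxygenase copy Manes.18G077600 differed by -5.18 (edgeR adjusted p = 5.6e-09). Direction was the same in 3 of 3 libraries of each line for all 5 genes. The genes were chosen for opposite calls against WT, so this agreement and the difference between the lines follow largely from that choice. Neither is added support for the pattern. TMM and the CAP family gene had few reads in HOE1, so the sizes of their differences are uncertain.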

How the results depend on the processing

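Every count of called genes and the change of the MeH1.2 candidate kept its direction and size class under each alternative run. Genes called in HOE8 against WT ranged from 16101 to 17294 (main 16841) when 1 library was left out and from 14635 (minimum count 50) to 17574 (no filter) otherwise. Calls at 2-fold or more ranged from 5672 to 8430 around 7481, and HOE8 against HOE1 from 13672 to 16054 around 15577, with no value from the fit without HOE1. The MeH1.2 candidate stayed between 4.39 and 4.54 on the log2 scale. With a replicate block, 16624 genes were called (7761 higher and 8863 lower); the numbers share only a label. DESeq2 called 16174. Without HOE8 library 1, 17294 were called. Scaling by library totals moved the median of all genes by -0.100 and gave 6940 higher and 10013 lower, 40.9% of calls higher against 46.9%.

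Of the 142 named genes, no call was lost where a gene was tested, and 140 were tested at minimum count 50. Calls were gained by Manes.15G039800 (-2.81 without WT library 1, which held few of its reads) and by Manes.16G002300 (-0.22 with library totals, -0.18 without HOE8 library 1). Medians of lists near 0 changed sign: chitinases and related proteins (-0.048 with library totals, -0.153 at minimum count 50, and -0.020 to 0.126 when 1 library was left out), expansins (-0.064 with no filter, -0.007 to 0.433 when 1 was left out), jasmonate (0.005 at minimum count 50, 0.017 in 6 libraries), heat shock factors (-0.009 at minimum count 50), the second description of pectin methylesterase inhibitors (-0.081 to 0.468 when 1 was left out) and small heat shock proteins (-0.073 with no filter, -0.084 to 0.192 when 1 was left out). Over all alternatives, medians of the lists and of all genes were compared with the SD among the 3 HOE8 libraries. They stayed within it in 987 cases, moved beyond it in 245 and changed sign in 14. The cause was not tested. The receptor-like protein kinase 1 family moved to 0.76 at minimum count 50, where fewer of its genes are tested. Simulated 1.5-fold changes were called in 44.8% of cases, but far fewer genes changed there than in the data. How far depth and replicate number limit small changes here was not tested.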

Other observations

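Of all genes tested, 33.7% were higher and 38.2% lower in HOE8 against WT, and 32.7% and 33.8% against HOE1. Plastid and mitochondrial transcription factors of the mTERF family had 15 of 44 higher, a share near that of all genes, and 6 lower, and HOE8 exceeded HOE1 in 27 of them and fell below it in 3. Splicing and RNA-binding proteins had 68 of 148 higher and 31 lower. Pentatricopeptide repeat proteins, most of which edit or process organelle RNA, had 123 of 285 lower and 66 higher. Chromatin modifiers had 39 of 89 higher and 17 lower against WT, but 16 higher and 34 lower against HOE1.

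Heat shock factors were divided, with 12 of 23 higher and 9 lower. Manes.13G124500, matching heat shock factor 4, a repressor class factor, measured 285, 283 and 276 CPM in the WT libraries and 21.0, 17.6 and 16.9 CPM in the HOE8 libraries. It fell without overlap (log2 fold change -3.92 ± 0.079, edgeR adjusted p = 9.8e-12). Small heat shock proteins had 19 of 49 higher and 10 lower. The chaperone gene Manes.01G129800, matching alpha-crystallin domain 32.1, measured 68.5, 67.2 and 75.3 CPM in the WT libraries, 124, 144 and 144 CPM in the HOE1 libraries and 0.529, 0.853 and 0.660 CPM in the HOE8 libraries. HOE8 libraries stood far below both other groups (against WT, log2 fold change -6.68 ± 0.13, edgeR adjusted p = 8.6e-12; against HOE1, log2 fold change -7.64 ± 0.13, edgeR adjusted p = 6.4e-12). Fasciclin-like arabinogalactan proteins of the cell surface had 15 of 32 higher and 10 lower.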
